A study of Mus musculus with 4 samples.

Results

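The cytosolic ribosomal protein genes encode the protein parts of the ribosome that translates nuclear mRNAs. They were taken as the rows whose symbol is Rpl or Rps followed by a number and at most a short suffix, with Rpsa and Rplp0 to Rplp2 added and pseudogene rows and the Rps6k kinases left out. Of 23235 genes, 84 carried such a symbol and 82 reached 1 FPKM (fragments normalised for transcript length and sequencing depth) in at least 1 library, 49 of the large 60S subunit and 33 of the small 40S subunit. The last to enter were Rps4y2, with a highest level of 1.68 FPKM, and Rpl3l, with 1.56 FPKM. Rpl10l and Rpl39l, which stayed out, were listed at 0 in every library. Reads may be shared between these genes and their many pseudogenes, so the level of each is uncertain where copies are near-identical.

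A ribosome holds 1 copy of nearly every ribosomal protein, and growing cells spend a large part of their transcription on them. Their mRNAs begin with a short run of pyrimidines, the terminal oligopyrimidine or TOP tract, through which the mTOR kinase and the RNA-binding protein Larp1 set how well they are translated. In blood, inherited loss of a single copy of several of these genes causes Diamond-Blackfan anaemia, a failure of red cell formation, and loss of Rps14 is tied to the anaemia of the 5q- syndrome.

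RNA was sequenced from acute myeloid leukaemia carrying the Mll-AF9 fusion and an NRASG12V transgene, grown in SCID/Beige mice, which have immune defects, for 20 days after tail vein injection. All 4 libraries had this genotype: 1 labelled NRASG12V on, and 3 labelled off at 48 h, 72 h and 96 h after intraperitoneal doxycycline that was continued in drinking water until sacrifice. The labels do not give the promoter that drives the transgene, the harvested tissue, whether libraries came from separate mice or whether the on mouse received any drug. With 1 library per group and no library labelled as given doxycycline with NRASG12V kept on, the drug, elapsed time and the switch cannot be told apart.

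Depth is unknown, since FPKM hold no read counts, but low values step with whole reads and placed the off libraries at 1.15, 1.04 and 1.19 times the reads per FPKM of the on library at 48 h, 72 h and 96 h. Each ratio is the most common one among genes with low values. It was held by 164 of 982 genes at 48 h, 54 of 921 at 72 h and 25 of 991 at 96 h, so the 96 h ratio is the least certain. The Nras row held 24.5 FPKM on and 17.1, 18.0 and 19.4 FPKM off. How transgene reads map to the mouse Nras gene is not stated in the labels. The myeloid genes Mpo and Elane were at 1025 and 979 FPKM in the on library. The median change of genes expressed in both libraries was -0.15, -0.09 and -0.07 on the log2 scale at the 3 times. Levels across times are given on the scale of the 48 h table, reached through the on column that every table holds.

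As a group, the ribosomal protein mRNAs were lower at 48 h and 72 h after the switch and nearer to the on level at 96 h. Their median level, 1256 FPKM in the on library, was 902, 885 and 1034 FPKM at the 3 successive off times. The 72 h library was the lowest and the on library the highest. The change of a gene is the log2 ratio of its off to its on FPKM after 1 FPKM is added to each, taken within a table; this scale understates the change of low genes. The median change was -0.51 at 48 h, -0.57 at 72 h and -0.29 at 96 h, or 70.2%, 67.2% and 81.6% of the on level. Over all genes that reached 1 FPKM in the pair of libraries compared it was -0.14, -0.07 and -0.06. Each value compares 2 libraries and has no replicate check.

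The lower level was shared by nearly all of the genes. At 48 h, 81 of the 82 genes were below the on library, where 60.3% of all genes were. At 72 h 80 were below, against 54.7% of all genes, and at 96 h 78, against 54.1%. The level was below that of the on library at all 3 off times for 77 of the 82 genes (93.9%), against 45.6% of all genes tested. No ribosomal protein gene was above the on library at all 3 times, against 33.5% of all genes tested. The middle 50% of the ribosomal protein genes spanned 0.15, 0.25 and 0.24 log2 units at 48 h, 72 h and 96 h. The same span over all genes was 0.71, 0.79 and 0.82, so the ribosomal protein genes moved within a narrow band. Other abundant genes, with a mean over libraries of 100 FPKM or more, numbered 620 at 48 h and 616 at 72 h and 96 h. Their median change was -0.32, -0.33 and -0.23 at the 3 times, and their span 0.75, 0.84 and 0.93. Of these genes 68.4%, 68.7% and 65.4% were below the on library. At 96 h their median was near that of the ribosomal protein genes, -0.29. With the median change of expressed genes set to 0, 81, 79 and 68 of the 82 genes were still below the on library, and with FPKM rescaled to the sum outside globins and short RNAs 79, 79 and 65. The shares of all genes below the on library were not computed on these 2 scales, and those given above do not apply to them.

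**Figure D1:**
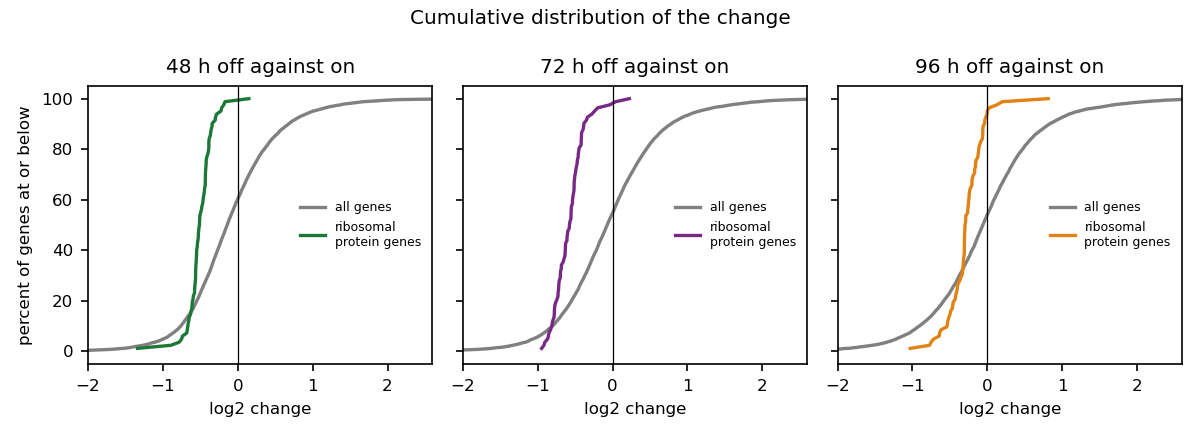
Cumulative percent of genes (vertical axis) at or below each log2 change (horizontal axis) at 48 h, 72 h and 96 h off, for the 82 ribosomal protein genes (coloured) and all genes reaching 1 FPKM (grey). The coloured curves are steep and sit left of 0, with medians of -0.51, -0.57 and -0.29, while the grey curves spread over 0.71 to 0.82 log2 units between their quartiles.

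The number of genes past a fixed fold differed between times. At least 1.5-fold lower were 18 of 82 (22.0%) at 48 h, beside 17.6% of all genes, a share near the background. At 72 h there were 39 (47.6%), beside 18.3%, and at 96 h 7 (8.54%), beside 19.8%. The 72 h count was 15 with FPKM rescaled to the sum outside globins and short RNAs, and the 48 h count 4. The share of all genes was not computed on that scale. At least 1.5-fold higher were none at 48 h and 72 h, where 12.2% and 15% of all genes were, and only Rpl26 at 96 h, where 15.9% were. At least 2-fold lower was only Rps27, at 48 h and 96 h, beside 4.85% and 8.16% of all genes; at 72 h no ribosomal protein gene was, beside 5.76%. None was at least 2-fold higher at any time, where 5%, 6.61% and 7.39% of all genes were at 48 h, 72 h and 96 h.

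From 72 h to 96 h the mRNAs were measured higher again. The 96 h library was above the 72 h library for 80 of 82 genes, against 50.4% of all genes tested; the exceptions were Rps27 and Rps4y2. The median difference was 0.31 log2 units, and 0.002 over all genes. For 72 genes (87.8%) the level was below the on library at 48 h and 72 h and higher at 96 h than at either, a shape that 21.6% of all genes had. The 72 h library was below the 48 h library for 59 genes, against 38.8% of all genes. Of the summed FPKM outside globins and short RNAs, the ribosomal protein genes made up 20.4% on, 16.3% at 48 h, 15.1% at 72 h and 18.2% at 96 h. Over all rows the shares were 16.5%, 6.89%, 9.15% and 3.33%, but rows of microRNAs and other short RNAs held 17.7%, 54.8%, 33.6% and 80.3% of those sums.

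The 3 off libraries were tested against the on library with limma on log2(FPKM + 1), fitted over 12015 genes, with Benjamini-Hochberg adjustment at 0.05. This test counts the difference between 72 h and 96 h as spread and assumes that the on library varies like the off libraries. It called 3 of 82 ribosomal protein genes lower (3.66%), against 15.1% of all genes, and none higher, against 11.8%, so that 26.9% of all genes passed in either direction. The 3 were Rps27, Rpl37a and Rpl3l, of which Rpl3l entered the test only through its level in the on library. At an unadjusted p under 0.05 there were 19, against 41.4% of all genes in either direction. Without the 96 h library 46 of the 82 passed as lower, against 20.1% of all genes. Without the 48 h library 3 passed, 2 of them among the 3 above, and without the 72 h library 2. The number called therefore depends on the 96 h library.

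**Figure D2:**
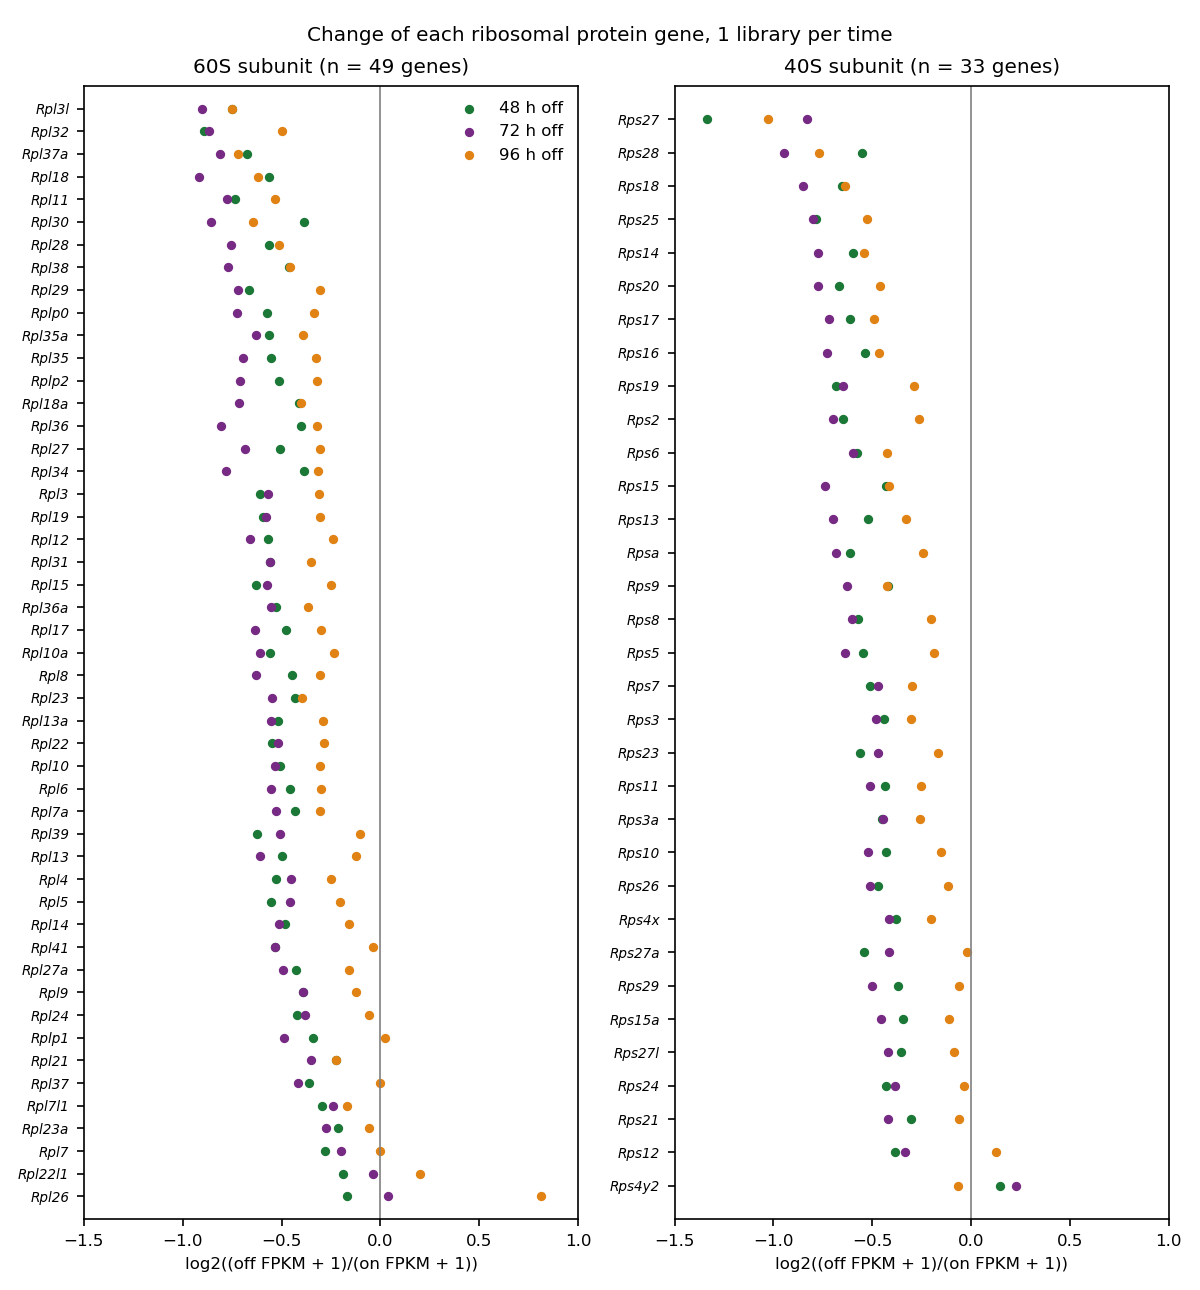
Log2 change (horizontal axis) of each of the 82 ribosomal protein genes (rows, ordered by mean change) at 48 h, 72 h and 96 h off, with 60S genes on the left and 40S genes on the right; each point is 1 library against the on library. The middle 50% of points lie between -0.57 and -0.42 at 48 h, -0.72 and -0.47 at 72 h and -0.40 and -0.15 at 96 h, and Rps27 at the low end and Rpl26 at the high end stand apart.

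The 60S and 40S genes are given side by side, and the difference between them was not tested. The 49 genes of the large subunit had median changes of -0.51, -0.57 and -0.30 at 48 h, 72 h and 96 h, and 46 were below the on library at all 3 times. The 33 genes of the small subunit had -0.52, -0.60 and -0.26, and 31 were below at all 3 times. Of all genes, 45.6% were below at all 3 times, and 15.1% passed limma as lower (20.1% without the 96 h library). By limma, 2 of the large and 1 of the small subunit passed as lower, and 29 and 17 without the 96 h library. The summed FPKM of the 40S genes went from 46263 on to 32193, 30187 and 37460, and that of the 60S genes from 59198 to 41609, 39179 and 49066.

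Within the large subunit, Rpl41, which encodes the smallest ribosomal protein, was the most abundant. Its level was 4558 FPKM on, then 3151, 3145 and 4447 FPKM in the successive off libraries, and the 96 h level was 97.6% of the on level. The mean over off libraries, -0.37 ± 0.29 on the log2 scale (SD, n = 3), did not pass limma (Benjamini-Hochberg adjusted p = 0.356), and did without the 96 h library (adjusted p = 0.0425). Rpl41 did not pass without the 48 h library or without the 72 h library. Rpl28 was at 3234 FPKM on and 2189, 1913 and 2265 FPKM off, lower in all 3 off libraries. It too did not pass limma without the 48 h library or without the 72 h library. Its mean change was -0.61 ± 0.13 (limma, Benjamini-Hochberg adjusted p = 0.0881; 0.0210 without the 96 h library).

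Rpl37a, a zinc-binding protein of the large subunit, fell in the limma test. The on level was 1668 FPKM and the off levels were 1045, 949 and 1013 FPKM. Its off libraries lay close together, with a mean change of -0.74 ± 0.07 (SD, n = 3; limma, Benjamini-Hochberg adjusted p = 0.0396). The call was lost without the 48 h library (adjusted p = 0.0567), without the 72 h library (0.214) with the median change of expressed genes set to 0 (0.0649), with FPKM rescaled to the sum outside globins and short RNAs (0.0688) and with no filter on low values (0.191). Unlike most ribosomal protein genes, it was at a similar level at 72 h and 96 h, which differed by 0.10 log2 units.

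Beyond the genes that the naming rule picked, Rpl32, Rpl18, Rpl11, Rpl5, Rpl10, Rps18, Rps25, Rps6, Rps19, Rps12, Rpl34, Rpl30, Rps15a, Rps4x and Rpl27a were chosen after their values were seen. Rpl32, often used as a reference gene, was at 2257 FPKM on and at 1215, 1236 and 1597 FPKM off. Its mean change of -0.75 ± 0.22 did not pass limma (Benjamini-Hochberg adjusted p = 0.0582). Rpl32 passed without the 96 h library, but not without the 48 h library or without the 72 h library. Rpl18 went from 1454 FPKM to 984, 770 and 946 FPKM, lowest at 72 h. Rpl32 was at most at 70.8% and Rpl18 at most at 67.7% of the on level in any off library.

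Rpl11 and Rpl5 carry the 5S rRNA into the large subunit and, when ribosome assembly stalls, bind and block Mdm2, the ligase that degrades p53. Rpl11 was at 1775 FPKM on and 1064, 1035 and 1228 FPKM off, a mean change of -0.68 ± 0.13 that did not pass limma (Benjamini-Hochberg adjusted p = 0.0582). Rpl11 passed without the 96 h library, but not without the 48 h library or without the 72 h library. Rpl5 was at 544 FPKM on and 371, 396 and 472 FPKM off. The levels of the pair were lower in each off library than in the on library. With Rpl23, Rps3 and Rps7, which are also known to bind Mdm2, all 5 genes were below the on library at all 3 times, and none passed limma (1 did without the 96 h library). Among all genes, 45.6% were below at all 3 times, and 15.1% passed limma as lower (20.1% without the 96 h library). Rpl10, which is fitted into the 60S subunit late in its assembly, was at 1277 FPKM on and 899, 881 and 1032 FPKM off.

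Rplp0, Rplp1 and Rplp2 form the stalk of the large subunit that recruits elongation factors. Rplp0 was at 1472 FPKM on and 987, 889 and 1167 FPKM off, below the on level throughout. Rplp2 was at 2044 FPKM on and 1434, 1248 and 1636 FPKM off. Rplp1 was at 2387 FPKM on and 1884, 1700 and 2424 FPKM off, so its 96 h library was above the on library. The median change of the 3 was -0.51, -0.71 and -0.32. Among all genes, 15.1% passed limma as lower, and 20.1% without the 96 h library. For the 3 stalk genes no call was made without the 48 h library or without the 72 h library. None passed limma (Benjamini-Hochberg adjusted p from 0.126 to 0.478), and 2 did without the 96 h library.

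In the small subunit, Rps27, a zinc-binding protein, had the lowest mean change of the 82 genes with a pseudocount of 1 FPKM. Rpl3l was lower with 0.1 FPKM (-1.59 against -1.07) and as a percent of its on level, and Rps28 had the lowest change at 72 h. From 410 FPKM on it went to 162, 230 and 201 FPKM in the successive off libraries, and all off libraries were at or under 56.2% of the on level. It fell by 1.07 ± 0.26 on the log2 scale (SD, n = 3; limma, Benjamini-Hochberg adjusted p = 0.0167), and the call held without any 1 of the off libraries. It was lost with no filter on low values (adjusted p = 0.231). The order of its times also differed from the rest, since 48 h was the lowest and 72 h the highest of the off libraries.

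Rps28, a small protein near the mRNA exit, was at 2786 FPKM on and 1902, 1445 and 1633 FPKM off. Its mean change was -0.76 ± 0.20 (limma, Benjamini-Hochberg adjusted p = 0.0548; 0.0192 without the 96 h library). Rps28 did not pass without the 48 h library or without the 72 h library. Its 96 h level stayed nearer to the 72 h level than to the on level. Rps15 was at 2592 FPKM on and 1922, 1552 and 1947 FPKM off, and Rps16 at 2397 FPKM on and 1650, 1447 and 1734 FPKM off. For both, 72 h was the lowest library. Leaving out the 48 h library or the 72 h library gave a call for neither. Neither passed limma over the 3 times (Benjamini-Hochberg adjusted p = 0.141 and 0.0998), and both did without the 96 h library (0.0422 and 0.0254).

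Rps18 was at 2224 FPKM on and 1413, 1235 and 1430 FPKM off, and Rps25 at 1592 FPKM on and 924, 916 and 1104 FPKM off. Rps6, the protein that S6 kinases phosphorylate, was at 1092 FPKM on and 732, 721 and 813 FPKM off. These 3 were below the on library at every time and none passed limma over the 3 times (Benjamini-Hochberg adjusted p from 0.0509 to 0.102). Like Rps15 and Rps16, they passed without the 96 h library but not without the 48 h library or without the 72 h library. Rps18 also passed with a pseudocount of 0.1 FPKM and with a filter of 5 FPKM. Rps27a, which is made as a fusion with ubiquitin, was at 958 FPKM on and 658, 719 and 944 FPKM off. At 96 h it was at 98.6% of the on level. Rpl39 was at 1319 FPKM on and 856, 928 and 1228 FPKM off. After Rpl26, these 2 genes had the largest range between off times, each 0.52 log2 units.

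Of 16 ribosomal protein genes whose loss is known in Diamond-Blackfan anaemia, 15 were below the on library at all 3 times, and the exception was Rpl26. Rps19, the gene most often affected in that disease, was at 1234 FPKM on and 770, 787 and 1011 FPKM off. The median change of the 16 was -0.55, -0.57 and -0.29, close to that of all 82 genes. Rps27 alone passed limma over the 3 times, and 9 of the 16 did without the 96 h library. Of all 82 ribosomal protein genes, 77 were below at all 3 times, and 3 passed limma as lower (46 without the 96 h library). Over all genes the shares were 45.6% below at all 3 times and 15.1% called lower, or 20.1% without the 96 h library.

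The genes nearest to or above the on level at 96 h included Rpl26, Rps12 and Rpl7. Rpl26, which can bind the mRNA of p53, was at 129 FPKM on and 114, 132 and 227 FPKM off. It was the only ribosomal protein gene at least 1.5-fold higher in any off library, by 0.81 log2 units at 96 h, and its range between off times, 0.98, was the widest. Its mean change of 0.23 ± 0.52 did not pass limma (Benjamini-Hochberg adjusted p = 0.658). Rps12 was at 2148 FPKM on and 1643, 1704 and 2348 FPKM off, lower at 48 h and 72 h and above the on library at 96 h. Rpl7 went from 1102 FPKM on to 906, 960 and 1099 FPKM off.

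Rpl34 has a low value beside an abundant copy. It was listed at 54.4 FPKM on and 41.4, 31.2 and 43.5 FPKM off, while the pseudogene row Rpl34-ps1 was at 1031 FPKM on and 726, 656 and 825 FPKM off. The pseudogene row was far above its parent, and both were lower in each off library. Rpl30, at 67.8 FPKM on and 51.7, 37.0 and 43.1 FPKM off, and Rps15a, at 90.6 FPKM on and 71.2, 65.7 and 83.7 FPKM off, were also far under the median of 1256 FPKM. For Rpl30 and Rps15a no copy row was examined. How reads were divided between Rpl34 and its copy is not given in the sources used here.

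Mammals keep a few paralogues that can take the place of a ribosomal protein. Rpl22l1, which the RNA-binding Rpl22 is known to repress, was at 121 FPKM on and 107, 118 and 140 FPKM off. Rpl22 itself was at 187 FPKM on and 127, 131 and 153 FPKM off. Rpl22l1 made up 39.4% of the summed FPKM of the pair on and 45.5%, 47.6% and 47.7% off, higher in all 3 off libraries. Its change exceeded that of Rpl22 by 0.36, 0.48 and 0.49 log2 units. That difference was not tested, and neither gene passed limma (Benjamini-Hochberg adjusted p = 0.144 for Rpl22 and 0.984 for Rpl22l1).

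Rps27l, known as a p53 target, was at 234 FPKM on and 183, 175 and 220 FPKM off, lower than on in each off library (limma, Benjamini-Hochberg adjusted p = 0.358). Because Rps27 fell by more, Rps27l made up 36.4% of the pair on and 53.1%, 43.2% and 52.4% off. Rpl36al, which the symbol rule leaves out, kept a steadier share beside Rpl36a, 33.9% on and 33.2%, 33.7% and 31.4% off. Rpl7l1 was at 45.3 FPKM on and 36.7, 38.3 and 40.2 FPKM off, and its share beside Rpl7 was between 3.53% and 3.95% in all 4 libraries.

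**Figure D3:**
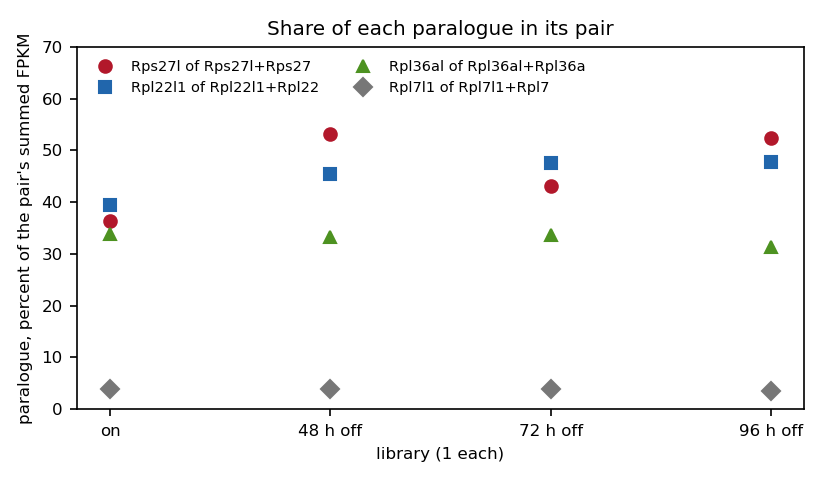
Share of each paralogue in the summed FPKM of the paralogue and its parent gene (vertical axis, percent) in the on library and at 48 h, 72 h and 96 h off (horizontal axis), with 1 point per library. The shares of Rps27l and Rpl22l1 are higher in all 3 off libraries than in the on library (36.4% and 39.4%), while those of Rpl36al and Rpl7l1 stay within 3 points.

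Rpl3l, a paralogue of Rpl3 known from heart and skeletal muscle, was barely detected, at 1.56 FPKM on and 0.525, 0.346 and 0.502 FPKM off. It fell by 0.82 ± 0.09 on the log2(FPKM + 1) scale (limma, Benjamini-Hochberg adjusted p = 0.0120; from 0.0097 to 0.0119 without 1 off library, and 0.175 with no filter on low values). Rpl3l reached the 1 FPKM filter only through the on library, so its selection favoured a fall and the call is no support for one. With a filter of 5 FPKM it was not tested. It made up at most 0.154% of the pair, so Rpl3, at 1012 FPKM on and 664, 682 and 816 FPKM off, carried nearly all of it. Rps4y2 was at 1.28 FPKM on and 1.53, 1.68 and 1.18 FPKM off, with no common direction, beside Rps4x at 1383 FPKM on and 1062, 1038 and 1200 FPKM off.

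Of the 82 genes, 80 were placed and lie on 19 chromosomes in the RefSeq table (assembly GRCm38.p6), with at most 14 on the same chromosome. RefSeq gave a promoter, from 250 bases before to 50 after an annotated start, for 60 of the 82. Stretches from 40 bases before to 20 after the start are shown in 5′ to 3′ order for 6 genes that span the range of changes: Rps27 and Rpl18, with low changes and a tract, Rpl37a, which fell and has no match, Rpl27a, with a tract of 20 bases, and Rps12 and Rpl26, which were above the on library at 96 h. Capitals mark the first C followed by at least 5 further C or T within 20 bases of the start on either side. These letters are like those of a TOP tract, but a marked stretch can lie before the annotated start.

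Rps27, chr3:90213629-90213688, minus strand: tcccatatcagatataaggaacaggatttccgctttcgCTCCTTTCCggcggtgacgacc
Rpl18, chr7:45718031-45718090, plus strand: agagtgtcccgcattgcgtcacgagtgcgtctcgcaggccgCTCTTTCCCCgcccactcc
Rpl37a, chr1:72711220-72711279, plus strand: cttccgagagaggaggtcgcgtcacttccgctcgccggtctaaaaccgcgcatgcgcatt
Rpl27a, chr7:109519155-109519214, plus strand: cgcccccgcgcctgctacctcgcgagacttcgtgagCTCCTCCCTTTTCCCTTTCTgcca
Rps12, chr10:23787190-23787249, minus strand: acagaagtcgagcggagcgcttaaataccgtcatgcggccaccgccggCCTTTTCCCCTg
Rpl26, chr11:68901526-68901585, plus strand: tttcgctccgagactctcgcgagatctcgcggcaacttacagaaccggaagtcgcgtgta

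Such a tract stood near at least 1 annotated start of 40 of the 60 genes (66.7%), against 32.8% of all 27025 genes in the table. A gene with several annotated starts was counted if any of them had the match, here and for the letters below. Some of the tracts, such as that of Rpl39, lie wholly before the annotated start. The 40 genes with it had median changes of -0.52, -0.59 and -0.29 at 48 h, 72 h and 96 h, and the 20 without it -0.51, -0.54 and -0.30. Annotated starts can lie some bases from the used start, so an absent match says only that these letters are not in the window. The letters CCGGAAG, a sequence bound by Ets factors and also visible in the Rpl26 stretch, were present on either strand within the 300 bases in 24 of the 60 (40%) against 9.93% of all genes. The 24 had medians of -0.52, -0.57 and -0.28 and the others -0.52, -0.55 and -0.30. AAGATGGC, recognised by Yy1, was in 10% against 3.19% of all genes, the GC box GGGCGG in 61.7% against 38.2%, the Myc E-box CACGTG in 10% against 8.09% and the TATA box letters TATAAA in 11.7% against 15.7%. These matches are descriptions of the letters, not of binding.

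Ribosomal protein mRNAs are short, and FPKM of short transcripts depend on the fragment lengths of a library. The longest coding transcript in the GENCODE annotation had a median of 926 nucleotides over the 80 genes found there. It ran from 383 to 5179 nucleotides and was under 1000 for 45 of the 80. The longest transcript need not be the one expressed, so these lengths are an uncertain measure. Across these 80 genes, which share libraries and are not independent, the change had a Spearman rho with that length of -0.09, 0.04 and -0.05 at 48 h, 72 h and 96 h, and with the level in the on library of -0.22, -0.30 and -0.21. Other abundant genes (mean 100 FPKM or more) with a transcript under 1000 nucleotides numbered 117. Their median changes were -0.38, -0.48 and -0.33, and 41.0% of them had the shape of being below on at 48 h and 72 h and higher at 96 h than at either. Of 440 such genes with longer transcripts, with medians of -0.32, -0.29 and -0.20, 27.3% had that shape. The part of transcript length in the values of the ribosomal protein genes, of which 87.8% had that shape, was not tested.

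Some ribosomal proteins carry symbols that the rule leaves out. Fau, which encodes a ubiquitin-like protein fused to a 40S protein, was at 1738 FPKM on and 1170, 1063 and 1286 FPKM off. Gnb2l1, the 40S scaffold protein Rack1, was at 1194 FPKM on and 788, 730 and 892 FPKM off. Rpl36al was at 694 FPKM on and 468, 468 and 480 FPKM off. Each of these genes was below the on library at all 3 times, as were 45.6% of all genes. None of them passed limma without the 48 h library or without the 72 h library. They did not pass limma over the 3 times (Benjamini-Hochberg adjusted p = 0.0988 for Fau, 0.0926 for Gnb2l1 and 0.0781 for Rpl36al), and did without the 96 h library (0.0227, 0.0199 and 0.0346).

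Other mRNAs with a TOP tract encode elongation factors and further parts of the translation apparatus. Of 19 measured, 16 were below the on library at all 3 times, as were 45.6% of all genes, with median changes of -0.54, -0.51 and -0.30, and over all 12015 genes tested the medians were -0.13, -0.06 and -0.05. By limma 3 fell and none rose (8 lower without the 96 h library, 1 without the 72 h library), a share near the 15.1% of all genes called lower. The elongation factor Eef1a1 was at 5098 FPKM on and 3195, 3323 and 3724 FPKM off and did not pass (limma, Benjamini-Hochberg adjusted p = 0.105). Vim, the intermediate filament protein vimentin, fell by 2.33 ± 0.52 (limma, Benjamini-Hochberg adjusted p = 0.00354), and the RNA-binding protein Hnrnpa1 by 0.68 ± 0.07 (adjusted p = 0.0343; 0.159 without the 72 h library). Pabpc1, the poly(A)-binding protein, was higher in every off library, at 577 FPKM on and 602, 742 and 714 FPKM off.

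Genes that assemble ribosomes had median changes of -0.58, -0.47 and -0.36 over 18 genes, and 4 fell and none rose by limma (9 lower without the 96 h library, 0 without the 72 h library, 6 without the 48 h library), beside 15.1% of all genes lower and 11.8% higher. Pes1, a 60S assembly factor, fell by 0.85 ± 0.08 (limma, Benjamini-Hochberg adjusted p = 0.0143; 0.0698 without the 72 h library), and Fbl, the fibrillarin that methylates rRNA, by 0.69 ± 0.06 (adjusted p = 0.0363; 0.220 without the 72 h library). Of 23 initiation factors 3 fell and 1 rose, with medians of -0.33, -0.18 and -0.05 (1 lower without the 72 h library, and 2 higher without the 48 h library). Both shares are below those of all genes, 15.1% lower and 11.8% higher. Eif1a fell by 0.90 ± 0.12 (limma, Benjamini-Hochberg adjusted p = 0.0116) and Eif6, which keeps the subunits apart, by 0.80 ± 0.12 (adjusted p = 0.0211; 0.139 without the 72 h library). Eif4a2, a helicase of the cap complex, rose by 0.91 ± 0.15 (adjusted p = 0.0153).

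The mitochondrial ribosome is built from a separate set of nuclear genes. Of its 76 genes, 42 were below the on library at all 3 times, beside 45.6% of all genes, with median changes of -0.38, -0.31 and -0.07. By limma 9 fell and none rose (1 lower without the 72 h library, 23 without the 96 h library), a smaller share than the 15.1% lower and 11.8% higher among all genes. Mrps9 fell by 1.07 ± 0.07 (limma, Benjamini-Hochberg adjusted p = 0.00531) and Mrps23 by 0.94 ± 0.13 (adjusted p = 0.0115; 0.0573 without the 72 h library). At 48 h 19 of the 76 were at least 1.5-fold lower, at 72 h 11 and at 96 h 7, beside 17.6%, 18.3% and 19.8% of all genes, so that the share was above that of all genes at 48 h and below it at 72 h and 96 h.

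Regulators of TOP mRNA translation gave medians of -0.26, -0.14 and -0.03 over 15 genes. With 15.1% of all genes called lower, only Rps6ka1, a kinase downstream of ERK that phosphorylates Rps6, passed limma, falling by 0.90 ± 0.13 (Benjamini-Hochberg adjusted p = 0.0146; 0.0523 without the 72 h library), from 90.2 FPKM on to 52.0, 48.9 and 43.4 FPKM. Of the 15, 3 passed as lower without the 96 h library, and 2 as lower and 1 as higher without the 48 h library. Among 11 genes of ribosome rescue and stress sensing, 2 rose and 1 fell, beside 11.8% and 15.1% of all genes. The eIF2 kinases Eif2ak1, which senses haem in red cell precursors, and Eif2ak2, which senses double-stranded RNA, rose by 1.15 ± 0.23 and 0.80 ± 0.17 (limma, Benjamini-Hochberg adjusted p = 0.0100 and 0.0217). The p53 target Cdkn1a fell by 0.91 ± 0.10 (adjusted p = 0.0122; 0.0621 without the 72 h library).

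**Figure D4:**
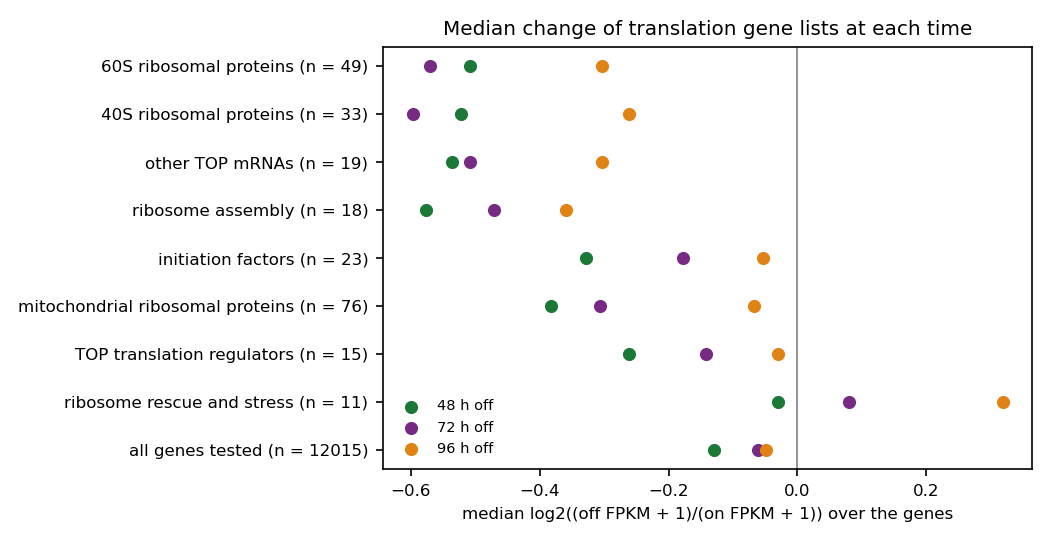
Median log2 change (horizontal axis) over the genes of each translation list (rows, with the number tested) at 48 h, 72 h and 96 h off, each from 1 library against the on library. The 60S and 40S genes, the other TOP mRNAs and the assembly genes have medians between -0.60 and -0.26 with the 96 h point nearest to 0, and the mitochondrial ribosomal proteins are at -0.07 at 96 h.

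The makeup of the libraries moved with the same comparison. Among all genes, limma called 15.1% lower and 11.8% higher, and 20.1% lower without the 96 h library. All 20 erythroid genes rose by limma, and their summed level went from 8031 FPKM on to 25396, 38010 and 40954 FPKM off. Of 9 primary granule genes 8 fell, and their sum went from 3868 to 751, 660 and 548 FPKM. Late neutrophil genes rose in 4 of 10 cases (8 without the 96 h library), with sums of 26517 FPKM on and 46864, 42122 and 30143 FPKM off. Of the late neutrophil, erythroid and primary granule sums, only the late neutrophil sum was farthest from the on library at 48 h and nearest at 96 h. Monocyte and macrophage genes fell in 5 of 9 cases, with sums of 2252, 2629, 2219 and 1526 FPKM, and pan-leukocyte genes in 4 of 11 (8 without the 48 h library, 6 without the 96 h library), with sums of 4598, 3343, 2654 and 2027 FPKM. Only 4 of 11 lymphoid genes reached 1 FPKM, of which 2 fell and 1 rose, and Igll1 was listed at 0 throughout. With no filter on low values, limma called 3 of the 9 primary granule genes lower. It then called none of the erythroid, late neutrophil, monocyte and macrophage, lymphoid or pan-leukocyte genes. The part of these cell type markers in the levels of the ribosomal protein genes was not tested. In bulk RNA, fewer cells with high ribosomal protein mRNA and less of it per cell cannot be told apart.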

How the data were processed

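The 4 deposited tables hold FPKM that the authors made with TopHat2 2.0.4 and Cuffdiff on build mm9 (per the submitters' processing notes). For the Cuffdiff version, annotation, strand setting and multiply mapped reads, the sources used here state nothing. In 3 tables the on library stands beside a single off library; its column is headed by time 0, the start of doxycycline. After 1 factor per table (1.05 at 72 h and 1.06 at 96 h, relative to the 48 h table) it agreed within 0.1% for at least 99.9% of genes, and this factor set the common scale.

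With a pseudocount of 1 FPKM, the genes at 1 FPKM or more in any library were tested with limma 3.58.1 (statmod 1.5.0, R 4.3.3; eBayes with trend and robust, 2 residual degrees of freedom), and p-values were Benjamini-Hochberg adjusted over all of them. The script was run on simulated data in which the on library varied like the off libraries. That run required only a small mean error of the log2 change, and it cannot check whether the real on library varies so. Nothing says that libraries came from separate mice, so p-values reflect only how these libraries vary, which may be technical. Alternatives were other pseudocounts and filters, 2 rescalings, plain eBayes, the combined off column and leaving out each off library. Genes were named by a rule: those past limma, the 5 most abundant, paralogue pairs, the P stalk, those nearest to the floor, and the 3 with the largest range between off times. Members and lists were chosen with earlier results of these data known. Values of some listed genes are not reported here.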

Additional observations from a re-analysis of the deposited data

Results flagged for a closer look

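For 5 of the 82 genes the off libraries lay on both sides of the on library, so that the direction differed between times; with 1 library per time the difference was not tested. The range between their off times, on the log2 scale, was 0.98 for Rpl26, 0.51 for Rps12, 0.51 for Rplp1, 0.39 for Rpl22l1 and 0.29 for Rps4y2. Rpl26, Rps12, Rplp1 and Rpl22l1 were below the on library at 48 h and above it at 96 h. Rps4y2, under 2 FPKM in every library, went the other way. No group had the 4 libraries that a search for outlying samples needs.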

How the results depend on the processing

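The median change kept its sign at all 3 times under every alternative run. With the median change of expressed genes set to 0 it was -0.36 at 48 h, and with FPKM rescaled to the sum outside globins and short RNAs, which adds 0.19, 0.18 and 0.12 to each log2 change at 48 h, 72 h and 96 h, it was -0.32 at 48 h and -0.40 at 72 h. The authors' combined off column gave -0.42 beside -0.57 at 72 h. Counts at least 1.5-fold lower became 5 at 48 h and 4 at 96 h with the median set to 0, and 4, 15 and 4 with the rescaled sum. For these settings the shares of all genes were not computed. Counts at least 2-fold lower became 2, 1 and 2 with a pseudocount of 0.1 FPKM, and 0 at 96 h with either rescaling. The limma count of 3 lower genes became 9 without trend and robust settings, 0 with no filter on low values (11 of the 82 genes at an unadjusted p under 0.05), and 2 to 46 without 1 off library; none was higher under any of these. The share of all genes called was not computed for these settings, except without the 96 h library, as given above. With no filter on low values, limma also called no gene of the translation lists given above, so its lack of calls was not particular to the ribosomal protein genes. Shares of the summed FPKM were 20.4%, 16.3%, 15.1% and 18.2% without globins and short RNAs, as given above. Signs turned, with no call, for Rpl7 with the rescaled sum (0.0011), for Rpl22l1 with the median set to 0 (0.10), the rescaled sum (0.15), and with 1 off library left out (from -0.11 to 0.082), and for Rpl26 with 1 off library left out (from -0.065 to 0.43). The cause of these shifts was not tested. No paired analysis was possible because each group holds 1 library. Depth is unknown, and 1 library per group limits every value at a single time.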

Other observations

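The other pseudogene rows of the family were low. Rplp2-ps1 was at 6.48 FPKM on and 3.75, 5.54 and 3.89 FPKM at 48 h, 72 h and 96 h, and Rps19-ps3 at 5.66 FPKM on and 1.58, 2.9 and 4.39 FPKM. Rps19bp1, which encodes a protein that binds Rps19, was at 19.7 FPKM on and 14.5, 18.0 and 18.4 FPKM off. In the authors' combined off column, 79 of the 82 ribosomal protein genes were below the on library, with a median change of -0.42.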
